A study of Mus musculus with 6 samples.

Results

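The genes described here are 33 named genes of microglia, the resident macrophages of the central nervous system, measured in the optic nerve of glioma-prone mice of 2 diets. They were picked by gene symbol out of 35850 genes in the table: 11 genes of resting (homeostatic) microglia, 8 genes shared by microglia and other myeloid cells, and 14 genes known from activated microglia. The table listed 33 of 33. Of these, 30 reached 1 TPM (a transcript level corrected for length and scaled to a fixed library total) in at least 3 of the 6 libraries and were tested, as were 14364 genes in all. Fcrls, Fcer1g and Cst7 did not reach that level and are given as values without a test.

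The libraries came from optic nerves taken at 6 weeks of age, and the comparison asks what the obesogenic diet does to RNA levels there. The 3 obesogenic libraries came from mice on an AIN-76A diet with 58% of energy from fat and with sucrose, and the 3 control libraries from mice on PicoLab 5053. The series title calls the exposure maternal. Mice of both diets carried GFAP-Cre together with a floxed Nf1 allele and the Nf1 R681X allele, with Cre driven by the promoter of Gfap, an astroglial gene that microglia do not use. The labels do not say whether libraries came from separate animals or litters, so each p-value is set against a spread between samples that may be technical. TPM carries no sequencing depth. Obesogenic library 2 stood apart: 20.6% of its listed TPM belonged to immunoglobulin genes, against at most 0.0439% in any other library of either diet. This lowers its other values, and the main counts are given with and without it or its immunoglobulin share.

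Microglia depend on CSF1R, a receptor kinase whose ligands are CSF1 and IL-34, and hold their resting state under TGF-beta, with the transcription factor SALL1 as part of it. Resting cells sense nucleotides through P2RY12 and P2RY13. In disease, ageing and developing white matter a part of them take up lipid and myelin debris through TREM2 and its adaptor TYROBP, and express Cst7, Itgax, Clec7a, Spp1, Gpnmb and lysosomal genes at higher levels while genes such as P2ry12 go down. In Nf1 optic glioma of the mouse, microglia are known to supply growth factors to the tumour.

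Promoter windows, from 250 bases before to 50 after a transcription start (RefSeq, GRCm38.p6), were listed for 25 of the 33 genes. They were searched on both strands for AGGAAGT, the core that PU.1, the ETS factor of myeloid cells, is known to bind, and for CACGTG, the E-box of MITF and TFEB, regulators of lysosomal genes. AGGAAGT was in 6 of the 25 genes (24.0%; P2ry12, Sall1, Fcrls, Ctss, Cst7 and Spp1) and in 10.7% of all 27025 genes with a window, counting a gene once if any of its windows held it; the share of all windows was 9.35%. CACGTG was in 3 of the 25 (12%; P2ry12, Siglech and Ctsd), in 8.09% of all genes and in 7.15% of all windows. The motifs cannot overlap each other, and a match is a run of letters and not a shown binding site. The windows below belong to genes with AGGAAGT whose levels differ in pattern: Cst7 and Ctss were high in obesogenic library 2, P2ry12 was not, and Spp1 was low in each obesogenic library. Capitals mark AGGAAGT or its reverse complement and, near the start of the P2ry12 window, CACGTG.
Cst7 promoter, chr2:150570165-150570464, plus strand: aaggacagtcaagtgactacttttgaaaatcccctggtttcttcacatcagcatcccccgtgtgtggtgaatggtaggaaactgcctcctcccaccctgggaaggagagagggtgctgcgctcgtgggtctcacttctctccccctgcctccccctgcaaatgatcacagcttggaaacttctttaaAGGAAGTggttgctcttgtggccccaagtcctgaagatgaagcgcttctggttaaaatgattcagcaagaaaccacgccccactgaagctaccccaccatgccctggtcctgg
Ctss promoter, chr3:95526536-95526835, plus strand: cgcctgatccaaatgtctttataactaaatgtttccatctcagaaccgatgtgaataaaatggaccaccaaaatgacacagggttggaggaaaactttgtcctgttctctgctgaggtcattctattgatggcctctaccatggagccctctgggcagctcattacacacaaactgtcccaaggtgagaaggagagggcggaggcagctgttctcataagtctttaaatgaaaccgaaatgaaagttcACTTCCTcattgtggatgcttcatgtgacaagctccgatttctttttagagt
P2ry12 promoter, chr3:59262936-59263235, minus strand: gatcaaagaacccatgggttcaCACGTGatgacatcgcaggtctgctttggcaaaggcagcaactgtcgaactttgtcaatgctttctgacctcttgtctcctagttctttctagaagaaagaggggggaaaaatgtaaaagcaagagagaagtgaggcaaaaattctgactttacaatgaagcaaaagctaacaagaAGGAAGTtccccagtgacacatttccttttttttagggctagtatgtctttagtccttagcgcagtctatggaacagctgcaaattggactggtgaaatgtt
Spp1 promoter, chr5:104434861-104435160, plus strand: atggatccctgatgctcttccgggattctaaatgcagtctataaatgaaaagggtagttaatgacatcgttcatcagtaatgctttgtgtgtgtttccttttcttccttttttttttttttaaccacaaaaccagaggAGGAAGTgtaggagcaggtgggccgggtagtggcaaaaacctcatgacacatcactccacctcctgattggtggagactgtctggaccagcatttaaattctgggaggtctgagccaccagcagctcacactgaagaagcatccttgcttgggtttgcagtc
The AGGAAGT match began at position -63 for Cst7, -52 for P2ry12, -112 for Spp1 and -2 for Ctss, counted from the transcription start and with the base before it as -1; in Ctss it lies on the reverse strand.

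No member changed with diet at the threshold, and the libraries of the obesogenic diet did not move together. In obesogenic library 2, 6 of the 7 shared myeloid and 9 of the 13 activated genes tested were above the control mean on the log2(TPM + 1) scale, with Cd68, Spp1, Cd63, Cd9 and Fabp5 below it. In obesogenic libraries 1 and 3 the medians of the 3 groups were below the control mean. Relative to the control mean, the median log2(TPM + 1) of the 13 activated genes tested was -0.31, 0.97 and -0.50 in obesogenic libraries 1, 2 and 3, against 0.19, -0.01 and -0.11 in control libraries 1, 2 and 3. For the 7 shared myeloid genes tested it was -0.23, 1.54 and -0.73 in the obesogenic libraries, against 0.25, 0.11 and -0.40 in the control libraries. For the 10 homeostatic genes tested it was -0.17, 0.26 and -0.46 in the obesogenic libraries, against 0.45, -0.07 and -0.37 in the control libraries. The order of the groups in obesogenic library 2 was therefore shared myeloid, activated and homeostatic, from high to low. The median of all genes tested was 0.19, -0.16 and 0.14 in the same obesogenic libraries. In bulk RNA, fewer cells of a type and less RNA per cell cannot be told apart.

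**Figure D1:**
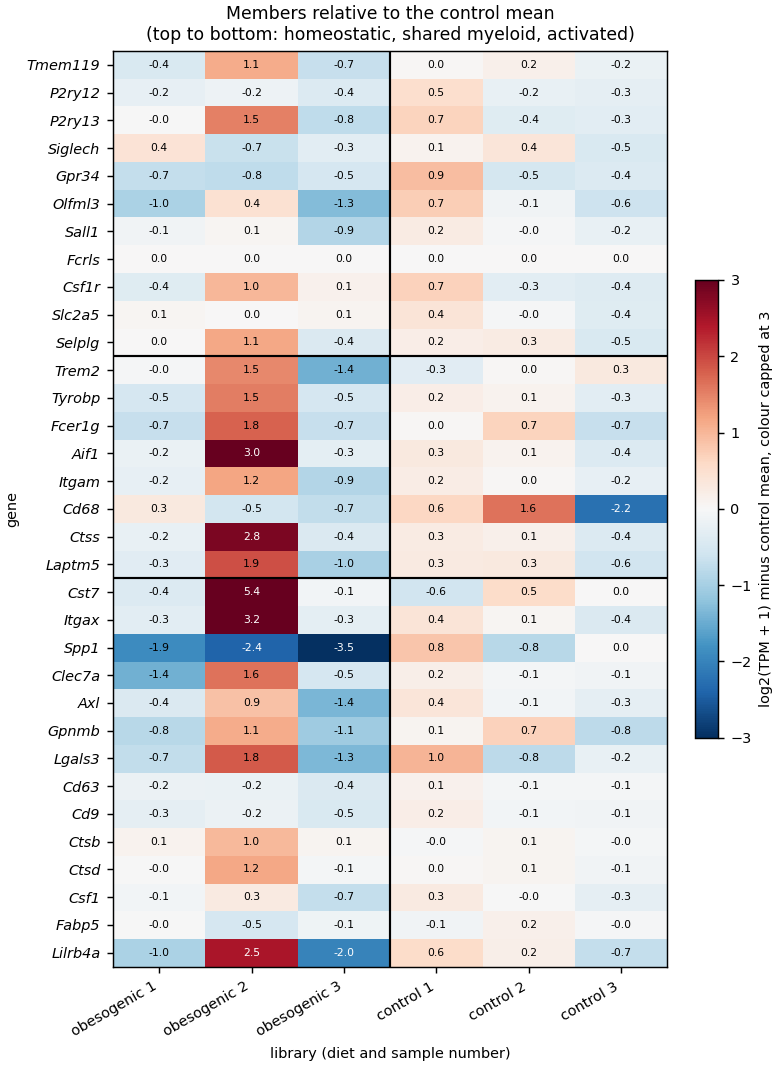
Each cell is a gene's log2(TPM + 1) in a library minus its mean over the 3 control libraries, with obesogenic libraries left of the black line and control libraries right of it; rows run through homeostatic, shared myeloid and activated genes. Obesogenic library 2 is red for most shared myeloid and activated genes, with Cst7 and Itgax off the colour scale, while Spp1 is blue in each obesogenic library.

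By count, 9 of the 30 members tested were at least 2-fold above the highest control library in obesogenic library 2 on the TPM + 1 scale, where 4.61% of all genes tested were. These were Aif1, Ctss, Laptm5, Trem2 and Tyrobp of the shared myeloid genes and Clec7a, Ctsd, Itgax and Lilrb4a of the activated genes, with 0 of the 10 homeostatic genes. Rescaled without immunoglobulin genes, the count was 15 of 30, against 6.1% of all genes, and then held Tmem119, Selplg and P2ry13 of the homeostatic genes. In obesogenic libraries 1 and 3 no member was that far above control, against 5.03% and 9.09% of all genes. On the low side, Clec7a and Spp1 were at least 2-fold below the lowest control library in obesogenic library 1, where 1.39% of all genes were, and Axl, Lilrb4a, Spp1 and Trem2 were so in obesogenic library 3, where 2.88% of all genes were. In obesogenic library 2 Spp1 was the 1 such member, against 3.45% of all genes, and against 1.82% after rescaling. This is a description of single libraries, since no replicate stands behind a library.

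The homeostatic genes did not move as a group. Tmem119 (ENSMUSG00000054675), a membrane protein gene used to mark microglia, measured 79.3, 234 and 66.8 TPM in obesogenic libraries 1, 2 and 3, against 111, 122 and 95.2 TPM in control libraries. P2ry12 (ENSMUSG00000036353), the ADP receptor through which microglial processes find injury, measured 55.9, 59.1 and 49.2 TPM in obesogenic libraries, against 94.0, 56.1 and 54.8 TPM in control libraries. Tmem119 was thus above the control range in obesogenic library 2 and below it in the other 2, while P2ry12 lay within or just below the control range in each obesogenic library. Selplg, the P-selectin ligand gene, measured 87.3, 193 and 64.4 TPM in obesogenic libraries, against 99.5, 104 and 62.8 TPM in control libraries, and followed Tmem119 in obesogenic library 2. Gpr34, a lysophosphatidylserine receptor gene, measured 14.8, 14.3 and 17.2 TPM in obesogenic libraries, against 48.2, 16.9 and 18.5 TPM in control libraries. Control library 1 alone sets its high control mean. Olfml3, a secreted glycoprotein gene, measured 12.1, 33.7 and 9.37 TPM in obesogenic libraries, against 41.7, 22.4 and 15.4 TPM in control libraries, and the diets overlap.

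Among the other homeostatic genes, P2ry13 and Siglech, shown because of their values, took opposite sides in obesogenic library 2. P2ry13, a further ADP receptor gene, measured 14.2, 43.2 and 8.05 TPM in obesogenic libraries, against 23.7, 11.1 and 11.3 TPM in control libraries. Siglech, a sialic acid-binding lectin gene, measured 17.2, 7.49 and 9.98 TPM in obesogenic libraries, against 13.6, 16.4 and 8.87 TPM in control libraries. P2ry13 was therefore highest of the 6 in obesogenic library 2 and Siglech lowest. Csf1r, the survival receptor, ranged from 5.85 to 16.5 TPM over obesogenic libraries and from 5.73 to 13.1 TPM over control libraries. Sall1 ranged from 10.6 to 21.4 TPM over obesogenic and from 17.4 to 24.3 TPM over control libraries. Slc2a5, a fructose transporter gene, ranged from 5.43 to 5.78 TPM over obesogenic and from 3.95 to 7.36 TPM over control libraries. The diets overlap in these 3 genes. Fcrls, an Fc receptor-like gene of mouse microglia, was listed at 0 in each of the 6 libraries, on 1 listed transcript. In all, the 10 genes tested had 4 positive and 6 negative log2 changes, from -0.66 for Gpr34 to 0.26 for Csf1r (limma adjusted p from 0.599 to 0.996), with a median of -0.10 against 0.08 over all genes tested.

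The shared myeloid genes were the ones most uniformly high in obesogenic library 2. Ctss, encoding the lysosomal protease cathepsin S, measured 204, 1692 and 178 TPM in obesogenic libraries 1, 2 and 3, against 286, 266 and 182 TPM in control libraries. Aif1, encoding the calcium-binding protein IBA1 by which microglia are commonly stained, measured 26.3, 252 and 24.6 TPM in obesogenic libraries, against 37.6, 32.95 and 22.9 TPM in control libraries. In obesogenic library 2 Ctss was 6.92-fold and Aif1 8.08-fold the control mean, and in obesogenic libraries 1 and 3 both genes were within or just below the control range. Laptm5, a lysosomal membrane protein gene of blood cells, measured 112, 548 and 72.0 TPM in obesogenic libraries, against 173, 176 and 95.0 TPM in control libraries. Tyrobp, the signalling adaptor, measured 85.2, 354 and 84.8 TPM in obesogenic libraries, against 139, 131 and 97.8 TPM in control libraries. Trem2, the lipid-sensing receptor that signals through it, measured 10.4, 30.7 and 3.25 TPM in obesogenic libraries, against 8.22, 10.9 and 13.2 TPM in control libraries. For Tyrobp and Laptm5 obesogenic libraries 1 and 3 were below control libraries 1 and 2, and Trem2 was below each control library in obesogenic library 3 and within the control range in obesogenic library 1.

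Itgam, the CD11b integrin gene, measured from 7.57 to 35.1 TPM over obesogenic libraries and from 12.3 to 17.5 TPM over control libraries, with its highest value in obesogenic library 2. Cd68, a lysosomal glycoprotein gene, went against the others, at 8.78, 4.48 and 3.80 TPM in obesogenic libraries against 11.2, 23.8 and 0.684 TPM in control libraries. The processed transcript Cd68-203 gave 100%, 50.9% and 86.7% of them in obesogenic libraries and 96.6%, 100% and 0% in control libraries, so the values do not rest on the same transcript throughout. Fcer1g, the Fc receptor gamma chain gene, was listed at 0, 4.55 and 0 TPM in obesogenic libraries and at 0.655, 1.59 and 0 TPM in control libraries. The 7 genes tested had log2 changes from -0.33 for Cd68 to 0.83 for Aif1, with a median of 0.18 (limma adjusted p from 0.771 to 0.997). Without obesogenic library 2 the log2 changes of all 7 were negative, with a median of -0.51 (adjusted p from 0.168 to 0.922).

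Among the activated genes, Cst7 and Itgax stood out in obesogenic library 2 and Spp1 was low in each obesogenic library. Cst7, encoding cystatin F, an inhibitor of lysosomal cathepsins, measured 0.424, 81.5 and 0.801 TPM in obesogenic libraries 1, 2 and 3, against 0.282, 1.79 and 0.934 TPM in control libraries. Its value in obesogenic library 2 was 45.7-fold the highest of the other 5 libraries, which ranged from 0.282 to 1.79 TPM. Itgax, the CD11c integrin gene, measured 0.684, 17.9 and 0.712 TPM in obesogenic libraries, against 1.72, 1.17 and 0.541 TPM in control libraries, with 10.4-fold the next highest value in obesogenic library 2. Clec7a, the beta-glucan receptor dectin-1, measured 1.75, 21.9 and 4.28 TPM in obesogenic libraries, against 7.41, 6.11 and 5.91 TPM in control libraries. Obesogenic library 2 was above and the other 2 obesogenic libraries below each control library for Clec7a. Lilrb4a, an inhibitory receptor gene shown because of its values, split the same way, at 5.57, 68.6 and 2.15 TPM in obesogenic libraries against 17.7, 13.3 and 6.69 TPM in control libraries. Cst7 and Itgax are also expressed by cytotoxic lymphocytes and dendritic cells, so neither belongs to microglia alone.

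Spp1 (ENSMUSG00000029304), encoding osteopontin, a secreted phosphoprotein that activated microglia, oligodendroglia and fibroblasts can make, measured 4.29, 2.68 and 0.755 TPM in obesogenic libraries, against 33.5, 9.92 and 18.8 TPM in control libraries. The diets did not overlap, and the mean was 2.58 ± 1.77 TPM against 20.7 ± 11.9 TPM in control (SD, n = 3 each). Its log2 change of -2.59 (SE 0.56) had the smallest adjusted p of the members, 0.228 (limma with Benjamini-Hochberg adjustment), and did not pass. Without obesogenic library 2 it was -2.68 with an adjusted p of 0.0578, and the adjusted p ranged from 0.0578 to 0.697 as each library was left out in turn. With array weights, which let libraries differ in precision, it passed (log2 change -2.00, adjusted p = 0.0269), in a fit that called 2064 genes. Spp1 rests almost wholly on Spp1-205 and Spp1-204, with 84.4% and 14.99% of its TPM, and both were lower on average in obesogenic libraries. Spp1-204 overlapped between diets, at 0, 1.60 and 0 TPM in obesogenic libraries and at 5.93, 0 and 2.96 TPM in control libraries. Spp1 was thus low even in obesogenic library 2, where most genes it is grouped with were high.

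The cathepsin genes of the activated group were abundant and high in obesogenic library 2, while the tetraspanin genes differed little between libraries. Ctsb, the cathepsin B gene, measured 747, 1364 and 733 TPM in obesogenic libraries, against 673, 741 and 671 TPM in control libraries. Ctsd, the cathepsin D gene, measured 644, 1444 and 622 TPM in obesogenic libraries, against 658, 683 and 602 TPM in control libraries. Both were close to the control level in obesogenic libraries 1 and 3, and in obesogenic library 2 Ctsb was 1.96-fold and Ctsd 2.23-fold the control mean. Cd63, a tetraspanin of late endosomes, measured 595, 586 and 495 TPM in obesogenic libraries, against 724, 644 and 638 TPM in control libraries. Cd9, another tetraspanin, measured 373, 394 and 326 TPM in obesogenic libraries, against 511, 424 and 416 TPM in control libraries. For Cd63 and Cd9 each obesogenic library lay below each control library, by small steps: the log2 changes were -0.26 (SE 0.18) and -0.30 (SE 0.18), with limma adjusted p of 0.66 and 0.598. After rescaling without immunoglobulin genes the libraries of Cd63 and Cd9 overlapped, which left Spp1 as the 1 member without overlap, against 5.78% of all genes on the low side and 16.1% on the high side. These genes are expressed by glia and vessel cells too, so their values are not those of microglia alone.

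Of the remaining activated genes, Lgals3, the galectin-3 gene, ranged from 8.90 to 88.9 TPM over obesogenic libraries and from 13.6 to 49.9 TPM over control libraries. Gpnmb, a glycoprotein gene of phagocytic cells, ranged from 28.5 to 132 TPM over obesogenic and from 34.9 to 98.8 TPM over control libraries. Axl, a receptor kinase that binds apoptotic debris through GAS6, ranged from 6.31 to 33.9 TPM over obesogenic and from 14.6 to 23.3 TPM over control libraries. In these 3 genes obesogenic library 2 was the highest of the 6 and obesogenic library 3 the lowest. Csf1, the CSF1R ligand, ranged from 40.1 to 80.3 TPM over obesogenic and from 55.5 to 80.7 TPM over control libraries. Fabp5, a fatty acid-binding protein gene, was lowest in obesogenic library 2, at 319.9 TPM, and ranged from 416 to 507 TPM in the other 5 libraries. Fabp5 has near-identical pseudogenes and Lilrb4a a close paralog, so how reads were split among copies makes both uncertain. The 13 activated genes tested had 3 positive and 10 negative log2 changes, with a median of -0.18 (adjusted p from 0.228 to 0.982).

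**Figure D2:**
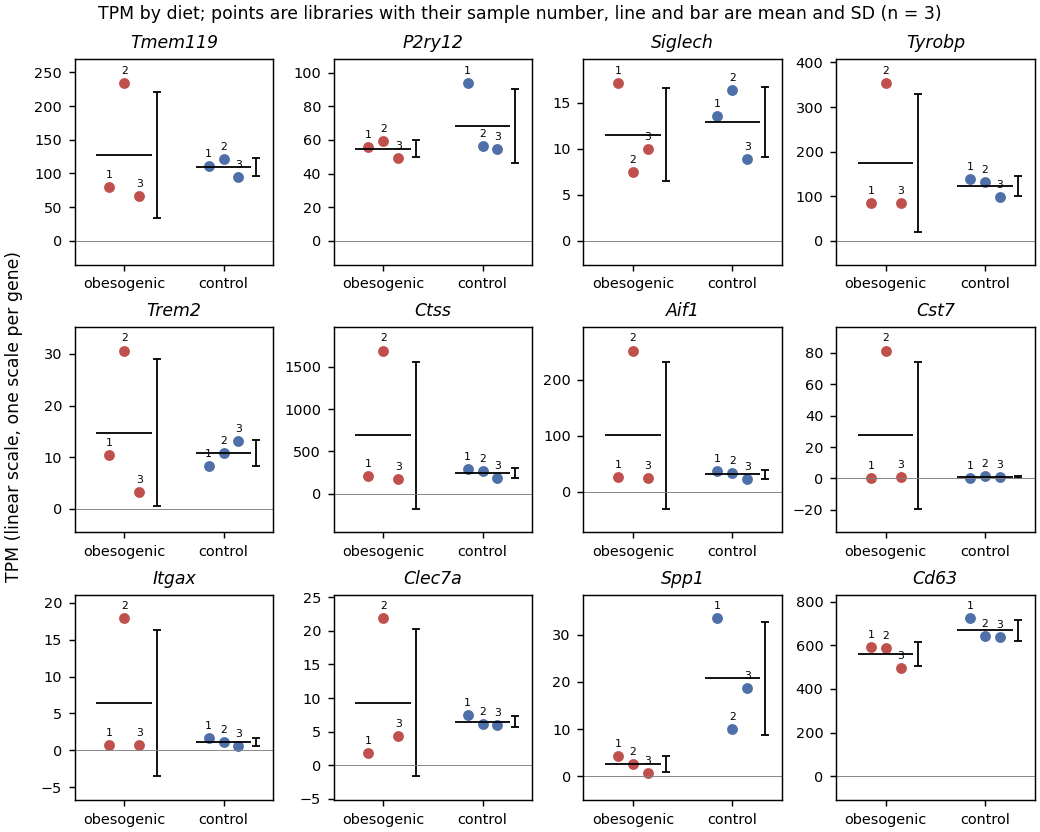
TPM of 12 members in each library, obesogenic left and control right, with the sample number beside each point and the mean and SD of the 3 libraries as line and bar. For Tmem119, Tyrobp, Trem2, Ctss, Aif1, Cst7, Itgax and Clec7a the obesogenic mean and SD are set by library 2, while the 3 obesogenic values of Spp1 and Cd63 lie below the 3 control values.

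Ratios between members within a library do not depend on the library's scaling. For some members, not all, they separated obesogenic library 2 from the others in composition as well as in level. Relative to Tmem119, Cst7 was at 0.348 in obesogenic library 2, at 0.00534 and 0.0120 in obesogenic libraries 1 and 3, and between 0.00255 and 0.0147 in control libraries. The ratio of Ctss to Tmem119 was 7.22 in obesogenic library 2, 2.58 and 2.67 in obesogenic libraries 1 and 3, and 1.91 to 2.59 in control libraries. The ratio of Aif1 to Tmem119 was 1.07 in obesogenic library 2, 0.332 and 0.369 in obesogenic libraries 1 and 3, and 0.240 to 0.340 in control libraries. These genes were high in obesogenic library 2 beyond what Tmem119 was. Itgax and Clec7a were also above their control ranges relative to Tmem119 there, at 0.0763 and 0.0934. Lgals3 and Gpnmb were not: at 0.379 and 0.564 in obesogenic library 2 they lay within control ranges of 0.112 to 0.452 and 0.367 to 0.813. Of the 9 other homeostatic genes above 0, 6 were below their control range relative to Tmem119 in that library (P2ry12, Siglech, Gpr34, Olfml3, Sall1 and Slc2a5) and 3 were within it (P2ry13, Csf1r and Selplg). Olfml3 was below its control range of 0.162 to 0.377 in each obesogenic library, at 0.152, 0.144 and 0.140. Sall1, with a control range of 0.164 to 0.220, was also below it in obesogenic library 3, at 0.158, but above it in obesogenic library 1, at 0.239. In obesogenic libraries 1 and 3, Siglech (0.217 and 0.149), Slc2a5 (0.0709 and 0.0866) and Selplg (1.10 and 0.964) were above their control ranges. Those ranges ended at 0.135, 0.0666 and 0.901. Csf1r was above its control range in obesogenic library 3, at 0.128 against at most 0.119. Tmem119 was itself 2.15-fold its control mean in obesogenic library 2, so a gene such as P2ry12, whose own level lay within its control range, has a lower ratio. P2ry12 to Tmem119 was 0.252, against 0.462 to 0.851 in control libraries, Gpr34 to Tmem119 was 0.0611 there against 0.139 to 0.436 in control libraries, and Siglech to Tmem119 was 0.0320 there against 0.0932 to 0.135 in control libraries. The receptor pair P2ry13 to P2ry12 stood at 0.730 in obesogenic library 2, 0.254 and 0.164 in obesogenic libraries 1 and 3, and 0.197 to 0.252 in control libraries. Trem2 to Tmem119, at 0.131 in obesogenic library 2, was within the control range of 0.0744 to 0.139, so Trem2 did not stand apart there relative to Tmem119, and it was below that range, at 0.0486, in obesogenic library 3. Spp1 to Tmem119 was 0.0541, 0.0114 and 0.0113 in obesogenic libraries, below the control libraries at 0.0816 to 0.303.

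**Figure D3:**
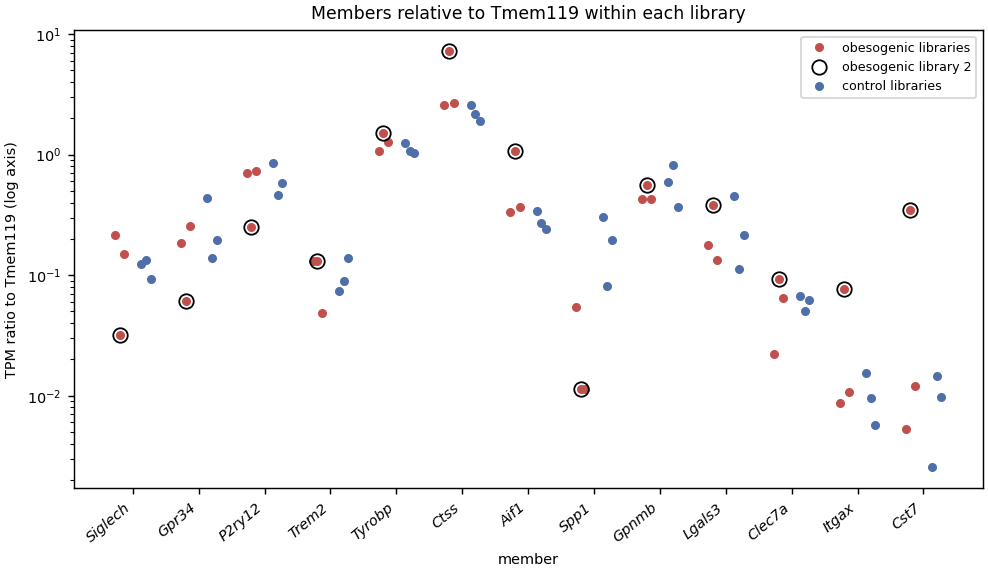
TPM of 13 members divided by TPM of Tmem119 within each library, on a log axis, with obesogenic libraries left of control libraries and obesogenic library 2 ringed. The ringed point is above the control points for Ctss, Tyrobp, Aif1, Clec7a, Itgax and Cst7 and below them for Siglech, Gpr34, P2ry12 and Spp1.

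Tested over diet, no member passed. Of the 30 members 12 had a positive and 18 a negative log2 change, and 0 passed limma's adjusted threshold of 0.05, where 1 of all 14364 genes did (0.00696%), the pseudogene Gm9836, named here as the 1 gene called. At an unadjusted p below 0.05 there was 1 member, Spp1, or 3.33% of those tested, against 10.96% of all genes. Members whose libraries did not overlap numbered 3 on the low side (Cd63, Cd9 and Spp1), where 7.45% of all genes tested did so, and 0 on the high side, where 8.88% did. The median of the 30 was -0.09 against 0.08 for all genes. The activated median minus the homeostatic median was -0.08, a difference between list medians without a test.

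Without obesogenic library 2, 27 of the 30 members had a negative log2 change, with a median of -0.40, where 37.3% of all genes tested were lower and the median of all genes was 0.16. No member passed, where 6.36% of all genes did, 5.12% on the high and 1.25% on the low side. Lilrb4a had a log2 change of -1.48, Olfml3 of -1.13, Lgals3 of -1.04 and Tmem119 of -0.57 in that comparison (limma adjusted p = 0.131, 0.158, 0.286 and 0.106). The homeostatic, shared myeloid and activated medians were then -0.36, -0.51 and -0.40, so in obesogenic libraries 1 and 3 the 3 groups were low by similar amounts. The 3 members with a positive change were Siglech at 0.06, Slc2a5 at 0.07 and Ctsb at 0.09.

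**Figure D4:**
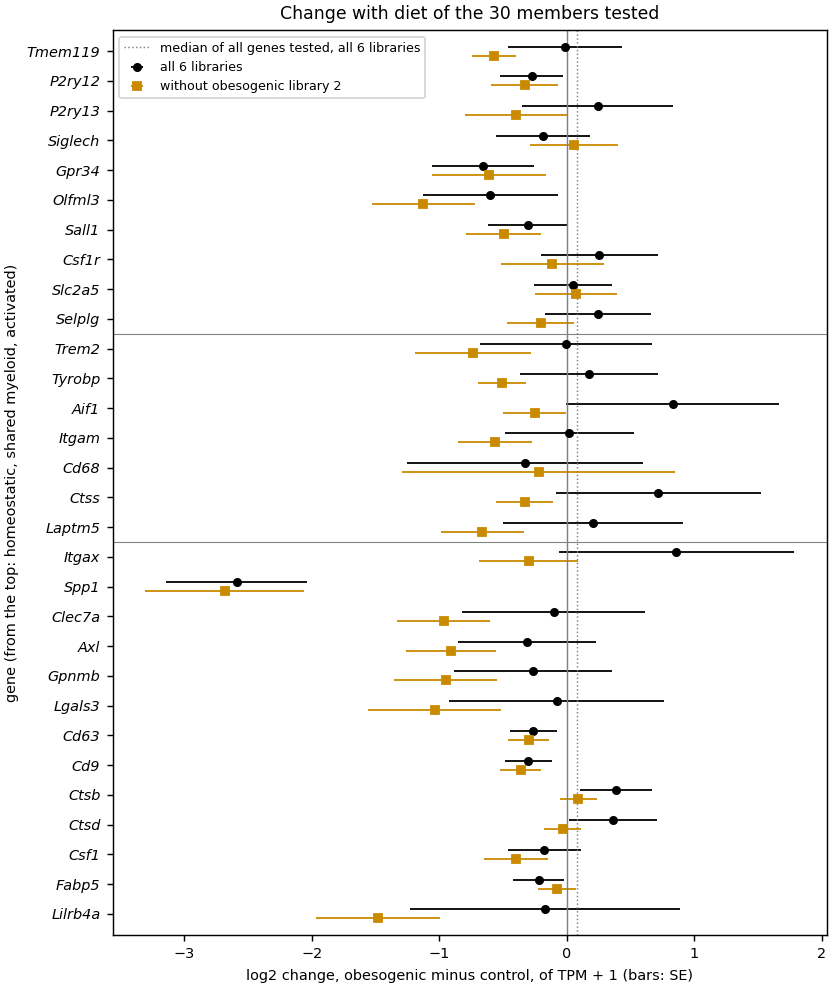
Log2 change with diet (obesogenic minus control, TPM + 1) and its SE for the 30 members tested, over 6 libraries in black and without obesogenic library 2 in ochre; the dotted line is the median of all genes tested. Spp1 is far below 0 in both fits, and most other ochre points lie left of 0 and of their black points.

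By their median, other microglia genes were also high in obesogenic library 2, but not every gene was. Cd14, Ctsl, Lpl and Ikzf1 were below each control library there, with Cd14 at 22.5 TPM against at least 24.1 TPM in control libraries. Of 32 further microglia genes 31 were tested, and 24 had a positive and 7 a negative log2 change with 0 passing; their library medians were -0.34, 1.62 and -0.50 in obesogenic libraries 1, 2 and 3, against 0.11, 0.15 and -0.30 in control libraries. Without obesogenic library 2 the split turned round, with 6 positive and 25 negative, a median of -0.41 and 2 passing, Cd14 and Lyz2; rescaled without immunoglobulin genes it stayed at 24 and 7. The 4 with the smallest p were Cd14, an endotoxin co-receptor gene, and the cathepsin gene Ctsl on the low side, and the cholesterol exporter gene Abca1 and the chemokine gene Ccl4 on the high side (limma adjusted p from 0.425 to 0.511). Abca1 measured 25.4, 24.6 and 18.6 TPM in obesogenic libraries, against 14.0, 13.9 and 17.7 TPM in control libraries, a difference present in each obesogenic library. Ccl4 measured 1.45, 41.3 and 2.76 TPM in obesogenic libraries, against 0, 1.54 and 0.917 TPM in control libraries, with obesogenic library 2 apart.

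In the TREM2 signalling list 9 of 12 genes were tested, 8 positive and 1 negative, with 0 passing and library medians of -0.21, 1.48 and -0.40 in obesogenic libraries 1, 2 and 3. Sirpa, the CD47 receptor gene that neurons express as well, measured 113, 127 and 127 TPM in obesogenic libraries, against 76.9, 64.0 and 66.8 TPM in control libraries (log2 change 0.82, SE 0.17, limma adjusted p = 0.218). Apoe, a lipid carrier gene of astrocytes and microglia, measured 12198, 11798 and 9728 TPM in obesogenic libraries, against 12525, 15203 and 14509 TPM in control libraries. Each obesogenic library was above control for Sirpa and below it for Apoe, without passing. Without obesogenic library 2 this list had 3 positive and 6 negative changes, with a median of -0.31 and 1 passing, Sirpa; rescaled, it had 8 and 1. Grb2 and Inpp5d, the next by p, overlapped between diets. Of the transcription factors and the ligand Il34, 8 of 9 were tested, 5 positive and 3 negative with 0 passing; without obesogenic library 2 the counts were 2 and 6 with 0 passing, and rescaled 5 and 3. Maf was lower in each obesogenic library, at 9.24, 10.1 and 7.61 TPM, against 18.1, 16.7 and 12.2 TPM in control libraries, and Mef2c, Runx1 and Il34 overlapped between diets.

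On the TGF-beta axis 11 of 11 genes were tested, 4 positive and 7 negative with 0 passing and a median log2 change of -0.39. Lrrc32, which encodes GARP, a presenter of latent TGF-beta on vessel cells, measured 8.54, 8.86 and 8.97 TPM in obesogenic libraries, against 32.4, 24.9 and 26.5 TPM in control libraries (log2 change -1.55, SE 0.22, limma adjusted p = 0.132). Its 3 obesogenic libraries lay close together, all below the control libraries, and without obesogenic library 2 it passed, the 1 gene of 11 to do so. Smad3 was lower in each obesogenic library, at 13.2, 11.7 and 11.7 TPM against 16.8, 14.6 and 17.4 TPM in control (adjusted p = 0.577). Tgfb1 and Ski overlapped between diets.

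Markers of lymphocytes and plasma cells were high in obesogenic library 2, as many members were. The 6 B and plasma cell markers summed to 2499.9 TPM there, with none at 0, and to between 2.80 and 13.2 TPM in the other 5 libraries. Jchain in that list measured 2215 TPM in obesogenic library 2. The 6 T and NK cell markers summed to 209.7 TPM, with none at 0, against 2.58 to 9.94 TPM elsewhere, with Nkg7 at 137 TPM. Of the monocyte list the summed 1193 TPM was nearly all Ly6c2, at 1155 TPM, a gene that plasma cells express as well, while Ccr2 was at 24.6 TPM against 9.17 to 18.4 TPM in control. The 5 dendritic cell markers summed to 22.5 TPM, against 7.68 to 16.7 TPM elsewhere, but they did not move together. Xcr1 was at 6.70 and Clec9a at 4.51 TPM there, both above each other library, while Cd209a was at 6.85 TPM against 11.04 to 12.6 TPM in control. Zbtb46 was at 4.37 TPM there against 3.92 to 4.29 TPM in control, and Flt3 at 0.0884 TPM against 0 in control. The part of these cells in the values of the members and of the other microglia genes in that library was not tested.

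Border macrophages, the macrophages of meninges and vessels, did not follow as a list, though their markers split. Their 9 markers summed to 94.4, 62.4 and 75.5 TPM in obesogenic libraries 1, 2 and 3, against 185, 178 and 158 TPM in control libraries, with Ms4a7 at 0 in obesogenic library 1 and control library 2. All 9 had a negative log2 change, with a median of -1.25 and 0 passing; without obesogenic library 2 all 9 were negative and 2 passed, F13a1 and Cd163, and rescaled 8 were negative. F13a1, Cd163, Folr2 and Cbr2 had the smallest p (limma adjusted p from 0.179 to 0.341). By sum, library 2 was thus the lowest of the obesogenic libraries for this list, while each member group was highest there. F13a1, Cd163, Lyve1, Pf4 and Cbr2 were lowest there and Folr2 lay between. Mrc1, Stab1 and Ms4a7 were highest there among the obesogenic libraries, at 13.1, 17.3 and 3.43 TPM. Stab1 was also above its control range of 8.65 to 17.1 TPM, while Mrc1 and Ms4a7 were within theirs. Neutrophil markers summed to 12.7, 28.3 and 2.94 TPM in obesogenic libraries and to 34.3, 57.2 and 63.3 TPM in control libraries.

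Markers of vessels, meninges, glia and neurons also differed between libraries. In obesogenic libraries 1, 2 and 3 the endothelial markers had medians of -1.13, -1.20 and -1.08 against the control mean, and meningeal fibroblast markers of -1.37, -1.40 and -1.50. Oligodendrocyte markers were at -0.28, -0.68 and -0.97 and astrocyte markers at 0.20, -0.56 and -0.50. Neuron markers were at 2.73, 1.09 and 4.204. Among them Slc17a6 and Rbfox3 reached 77.3 and 54.7 TPM in obesogenic library 3, against at most 1.97 and 1.61 TPM in control libraries. Where this neuronal RNA came from was not tested. Mog, Gfap and Aqp4, defining genes of nerve glia, were detected in each library. The part of these shifts in the microglial values of obesogenic libraries 1 and 3 was not tested.

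**Figure D5:**
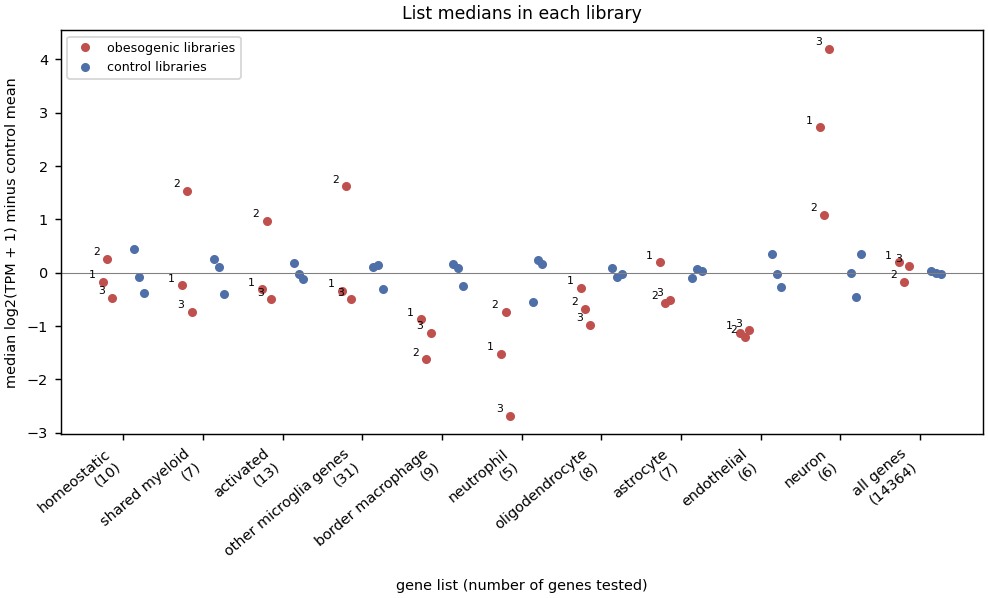
Median log2(TPM + 1) relative to the control mean, over the tested genes of each list, in each obesogenic library (left, with its number) and each control library (right). Obesogenic library 2 is above the control libraries for the shared myeloid, activated and other microglia lists and lowest for border macrophages, and neuron markers are above control in each obesogenic library.

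Gene values are sums over listed transcripts, and their make-up differed between members. Cd63, Cd9, Ctsd, Ctss, Tmem119, P2ry12 and Spp1 came almost wholly from protein-coding transcripts. Ctsb, Olfml3 and Axl came mostly from retained-intron transcripts: the coding share of Ctsb was 39.3%, 38.4% and 39.3% in obesogenic libraries and 41.5%, 41.4% and 39.4% in control libraries, and that of Olfml3 was 18.0%, 18.5% and 17.3% in obesogenic libraries and 18.5%, 19.0% and 13.02% in control libraries. These shares did not separate obesogenic library 2 from the others. For Aif1 the coding transcript Aif1-203 measured 150.1 TPM and the retained-intron transcript Aif1-205 99.7 TPM in obesogenic library 2, both above each control library. Clec7a and Lilrb4a differed in form between libraries. Clec7a-201 was listed at 16.1 TPM in obesogenic library 2, at 3.29 TPM in control library 2 and at 0 in the other 4 libraries, where Clec7a-202 and Clec7a-204 made up its value. Lilrb4a came mostly from non-coding transcripts, with a coding share of 0%, 7.69% and 0% in obesogenic libraries and 15.8%, 22.7% and 23.1% in control libraries. Its transcript Lilrb4a-205, of the nonsense-mediated decay class, was listed at 17.4 TPM in obesogenic library 2 and at 0 in the other 5 libraries. The coding Lilrb4a-201 was listed at 0 in each obesogenic library and at 2.80, 3.03 and 1.54 TPM in control libraries. Cst7, P2ry13 and Sall1 rest on 1 listed transcript each.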

How the data were processed

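The 6 libraries hold poly(A) RNA of mouse optic nerve, 3 from each diet, prepared with NucleoSpin RNA Plus XS and SMART-Seq mRNA kits, per the labels' protocols. The authors deposited TPM per transcript. Per the submitters' processing notes, tools included STAR 2.7.9a, featureCounts 2.0.3, Subread and DRAGEN. Which of them computed TPM, and on which build and annotation, is not given in the sources used here. Each of 109383 transcripts was counted once (415 stood on several lines, with the same values) and summed to 35850 genes. Sums cover listed transcripts and may miss isoforms, and the listed TPM came to between 788456 and 832193 per library. A value of 0 means listed at 0.

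The 14364 genes that reached 1 TPM in 3 or more libraries were tested as log2(TPM + 1), obesogenic minus control, with limma 3.58.1 in R 4.3.3 (lmFit, eBayes with trend), two-sided, with Benjamini-Hochberg adjustment over all genes tested and a threshold of 0.05. The log2(TPM + 1) scale understates the change of low genes. The fit was tested on simulated data. Members are given in full where diets do not overlap, for the 3 highest by TPM and the 3 of smallest p in each group, and for Trem2, Tyrobp, Tmem119, P2ry12, Cst7, Itgax, Clec7a and Spp1; of context lists up to 4 genes of smallest p are named. Genes said to be shown because of their values, the motifs and the printed promoters were chosen after values were seen, and members and lists with earlier results of these data known. Alternatives covered pseudocount, filter, scaling, block, weights, trend, main transcript and each library left out.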

Additional observations from a re-analysis of the deposited data

How the results depend on the processing

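Counts and medians of the members were recomputed under 17 alternatives. The context lists without obesogenic library 2 or rescaled were added after seeing the data. Over all genes tested 1 gene was called, 0 with a pseudocount of 5 or with no filter, 6 with trimmed-mean scaling and 2064 with array weights, which also called 1 member, Spp1 (log2 change -2.00). As each library was left out in turn the calls ranged from 0 to 914, with 914 without obesogenic library 2 and 0 without obesogenic library 1 or 3 or control library 1 or 3, while called members stayed at 0. Members without overlap numbered 3, against 1 after rescaling without immunoglobulin genes and 5 with trimmed-mean scaling, and ranged from 4 to 10 as each library was left out, with 10 without obesogenic library 2 and 5 without obesogenic library 3 or control library 2. Groups of 2 overlap less often than groups of 3 by construction. Over 6 libraries as deposited, 7.45% of all genes were without overlap on the low side and 8.88% on the high side. No such share is given for trimmed-mean scaling or with a library left out. Those counts are therefore not read as a result about the members. The group medians moved by less than the SD between libraries within a diet in each alternative. That SD includes obesogenic library 2 itself, so this comparison could hardly fail and does not show stability. Without obesogenic library 2 the shared myeloid median turned from 0.18 to -0.51. As each library was left out, the group medians ranged from -0.36 to 0.01 for homeostatic, -0.51 to 0.71 for shared myeloid and -0.40 to 0.14 for activated genes.

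No member was past the threshold over 6 libraries, and many log2 changes turned sign. With a pseudocount of 5 Trem2 was at 0.081, Clec7a at 0.055 and Lilrb4a at 0.066. Rescaled without immunoglobulin genes, where the median of all genes was 0.17 against 0.08 as deposited, Tmem119 was at 0.091, Trem2 at 0.092 and Lgals3 at 0.024. With trimmed-mean scaling, where that median was -0.024, Slc2a5 was at -0.043 and Itgam at -0.082, and with quantile normalisation, where it was -0.035, both were at -0.12. With the most abundant transcript Slc2a5 was at -0.45. With array weights P2ry13 was at -0.037, Siglech at 0.28, Csf1r at -0.28, Selplg at -0.022, Tyrobp at -0.45, Aif1 at -0.13, Itgam at -0.26, Ctss at -0.17, Laptm5 at -0.37 and Itgax at -0.21; the cause was not tested.

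As each library was left out, homeostatic log2 changes that turned sign ranged from -0.57 to 0.33 for Tmem119, -0.40 to 0.75 for P2ry13, -0.49 to 0.056 for Siglech, -0.11 to 0.60 for Csf1r, -0.13 to 0.25 for Slc2a5 and -0.20 to 0.58 for Selplg. Shared myeloid ones ranged from -0.74 to 0.71 for Trem2, -0.51 to 0.52 for Tyrobp, -0.25 to 1.40 for Aif1, -0.56 to 0.47 for Itgam, -1.45 to 0.49 for Cd68, -0.33 to 1.29 for Ctss and -0.66 to 0.79 for Laptm5. Activated ones ranged from -0.30 to 1.45 for Itgax, -0.97 to 0.56 for Clec7a, -0.91 to 0.22 for Axl, -0.95 to 0.14 for Gpnmb, -1.04 to 0.56 for Lgals3, -0.031 to 0.58 for Ctsd, -0.40 to 0.096 for Csf1 and -1.48 to 0.75 for Lilrb4a. Without obesogenic library 2, 11 members turned sign.

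With the sample number as a replicate block 1 gene and 0 members were called, the same counts as without it. The labels do not say that the numbers pair libraries. Deviations of same-numbered libraries correlated at 0.008, 0.177 and 0.132, and obesogenic library 1 correlated best with control library 3 (0.107), not with its own number. TPM holds no depth, so no counting limit is given.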
